A study of Mus musculus with 6 samples.

Results

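Arg1, Nos2, Chil3, Retnla, Mrc1, Cd163, Mgl2, Folr2 and Hcar2 are 9 of the 32285 genes counted in every cell of pancreatic tumours from 6 mice. The 9 genes were taken from the matrices by symbol. Of them, 8 are the usual markers by which macrophage activation states are told apart, and Hcar2 encodes a receptor of myeloid cells. The 9 genes were chosen with earlier results of these data known, so their p-values do not allow for that choice. Each was found as 1 row in all 6 matrices, and each was described in macrophages, monocytes and neutrophils. All mice carried the KPC genotype, given as KrasLSL.G12D/+; P53LSL.R172H/+; Pdx1-Cre, in which Cre recombinase is driven by the Pdx1 promoter of the pancreatic lineage, so that the myeloid cells studied here are host cells around the tumour. The treated mice (3 libraries) received IPI-926 (saridegib), which blocks Smoothened, the membrane protein that passes on the Hedgehog signal, at 40 mg/kg once a day by oral gavage for 2 days. The control mice (3 libraries) received the vehicle, hydroxypropyl-beta-cyclodextrin. Tumours were taken 2 h after the last dose, digested to single cells, cleared of red cells and profiled with the 10x Genomics 3′ assay, which counts RNA molecules (unique molecular identifiers, UMIs). The comparison asks how each cell type of the tumour responds to Smoothened inhibition. Each library is taken as the tumour of 1 mouse and is numbered 1 to 3 within its group only as a name; no litter, batch, day or age was used here.

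Macrophages take on different states according to the cytokines around them. Interferon-γ and bacterial products favour Nos2, the inducible nitric oxide synthase, which oxidises arginine to nitric oxide. Interleukins 4 and 13 signal through the transcription factor STAT6 and favour Arg1, the arginase that hydrolyses arginine to ornithine and urea, together with the chitinase-like protein Chil3 (Ym1), the secreted Retnla (Fizz1), the mannose receptor Mrc1 (CD206) and the galactose-type lectin Mgl2 (CD301b). Cd163 encodes the haemoglobin-haptoglobin scavenger receptor and Folr2 a folate receptor, both found on tissue-resident macrophages. Hcar2 encodes a G protein coupled receptor for β-hydroxybutyrate and nicotinic acid that is found on neutrophils, macrophages and fat cells. In pancreatic tumours, arginase-positive macrophages are known for depleting arginine that T cells need.

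The 9 genes lie on 8 chromosomes of the GRCm38 assembly. Arg1 (ENSMUSG00000019987) is at chr10:24915221-24927484 on the minus strand and Nos2 (ENSMUSG00000020826) at chr11:78920787-78960254 on the plus strand. Chil3 (ENSMUSG00000040809) is at chr3:106147554-106167564 on the minus strand and Retnla (ENSMUSG00000061100) at chr16:48842551-48844461 on the plus strand. Mrc1 (ENSMUSG00000026712) is at chr2:14229392-14332057, Cd163 (ENSMUSG00000008845) at chr6:124304656-124330527 and Mgl2 (ENSMUSG00000040950) at chr11:70130329-70137550, all on the plus strand. Folr2 (ENSMUSG00000032725) is at chr7:101839988-101857194 and Hcar2 (ENSMUSG00000045502) at chr5:123863570-123865499, both on the minus strand. These are spans of whole genes. The 3′ assay reads the end of each transcript, so counts do not tell exons or isoforms apart.

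The promoters of 2 genes found mainly in macrophages are shown. Mrc1 was present in every macrophage cluster. Retnla was present in all but clusters 11 and 44, which came almost all from IPI-926 library 3. Each line gives 142 bases, from 200 to 59 bases before the RefSeq transcript start, read 5′ to 3′ on the gene's own strand, from RefSeq on GRCm38.p6. Capitals mark motif matches.
Retnla (chr16:48842409-48842550, plus strand): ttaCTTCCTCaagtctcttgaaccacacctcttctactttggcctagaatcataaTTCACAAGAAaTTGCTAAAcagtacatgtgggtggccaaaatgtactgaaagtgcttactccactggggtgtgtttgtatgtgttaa
Mrc1 (chr2:14229214-14229355, plus strand): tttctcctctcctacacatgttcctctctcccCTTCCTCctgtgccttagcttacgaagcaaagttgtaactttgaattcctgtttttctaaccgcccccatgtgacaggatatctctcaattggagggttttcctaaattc

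Motifs were searched on both strands over 300 bases, 250 before to 50 after the start. The Retnla promoter held a STAT6-type match, TTCNNNNGAA, that begins 145 bases before the start, next to a C/EBP-type match, TTGCNNAA, at 134 bases and a PU.1-type match, GAGGAAG (written here in reverse as CTTCCTC), at 197 bases. Of 32851 promoters, 6.95% held the STAT6-type motif, 10.8% the C/EBP-type motif and 13.6% the PU.1-type motif. The Mrc1 promoter held PU.1-type matches at 168 and 36 bases. An AP-1-type match, TGANTCA, held by 7.81% of promoters, lay 74 bases before the start of Folr2. The Chil3, Cd163 and Mgl2 promoters held none of these 4 motifs in this window. No 2 of these matches overlapped. Promoters of 6 of the 9 genes were in the table used; Arg1, Nos2 and Hcar2 were not printed.

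The 6 matrices held 62905 barcodes, of which 49797 passed the filters on UMIs, genes, mitochondrial reads and doublets. Total UMIs per library were 100810942 to 174929328 in IPI-926 and 102399658 to 132827800 in vehicle. The median UMIs per cell were lower in IPI-926, at 2779.5 to 3883.5, than in vehicle, at 4193.5 to 7428. Any 2 libraries shared at most 59 barcodes. Cells were clustered without the 9 genes, and clusters were named from marker genes: 30 of 51 clusters were named, and 13568 cells in the other 21 stayed unnamed. The cell types are therefore macrophage-like, monocyte-like and neutrophil-like, and are called macrophages, monocytes and neutrophils here.

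Macrophages numbered 6856 cells (710, 1191 and 1725 in IPI-926 libraries 1 to 3, against 827, 1803 and 600 in vehicle libraries 1 to 3). Monocytes numbered 4187 cells (500, 215 and 2480 in IPI-926, against 263, 646 and 83 in vehicle), and neutrophils 7438 cells (2422, 1278 and 194 in IPI-926, against 385, 2343 and 816 in vehicle). Csf1r, Adgre1, Csf3r and G0s2 were among the markers used to name the clusters, so their levels are given as a description. The colony-stimulating factor receptor Csf1r averaged 478.3 CPM (UMIs of the gene per 1000000 UMIs of a library's cells of 1 type) in macrophages and 405.9 CPM in monocytes, against 94.3 CPM in neutrophils. Adgre1, which encodes F4/80, averaged 193.5 CPM in macrophages and 75.6 CPM in monocytes. Neutrophils had 1049 CPM of Csf3r, the G-CSF receptor, and 2713 CPM of the lipolysis inhibitor G0s2, against 32.1 and 8.84 CPM in macrophages.

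The third IPI-926 library stood apart. Of its macrophages, 94.7% were in cluster 11 and 3.83% in cluster 44, both led by the chemokine gene Ccl8, whereas no other library had more than 0.6% of its macrophages in cluster 11. It also gave 2054 of the 2160 cells of monocyte cluster 4, led by Ly6c2, and 200772 neutrophil UMIs in all. Fold changes of the 9 genes are given with and without this library where it moves them.

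**Figure D1:**
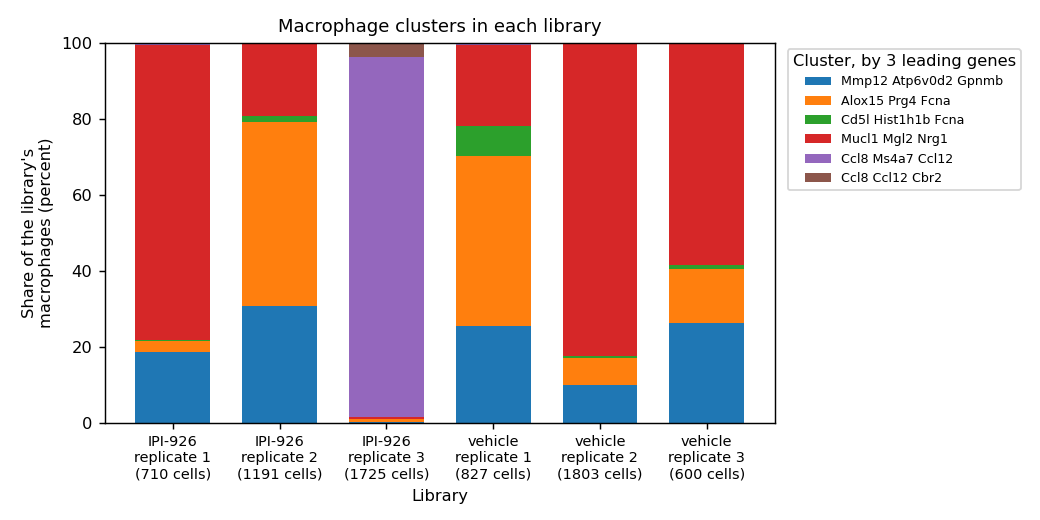
Share of each library's macrophages (percent) in each macrophage cluster, named by its leading genes. IPI-926 library 3 is almost all the cluster led by Ccl8, Ms4a7 and Ccl12 (94.7%), while the cluster led by Mucl1, Mgl2 and Nrg1 makes up 77.8% of IPI-926 library 1 and 82.5% of vehicle library 2.

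Most molecules of 8 of the 9 genes came from the 3 myeloid cell types. Macrophages, monocytes and neutrophils together held 95.4% of all Retnla UMIs, 91.3% of Folr2, 89.99% of Arg1, 87.8% of Cd163, 87.2% of Hcar2, 86.9% of Chil3 and 86.2% of Mrc1. They held 56.7% of Mgl2 UMIs. Nos2 was the exception, with 35.6% of its UMIs in these cells.

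Arg1 was a macrophage transcript. It averaged 1732 ± 1209 CPM in macrophages and 630 ± 439 CPM in monocytes, against 21.9 ± 23.9 CPM in neutrophils (SD over 6 libraries, unscaled, as for the other levels by cell type). T and NK cells, which serve as the level left by free RNA, had 27.1 ± 34.1 CPM, so the neutrophil level of Arg1 did not stand above it. Its mitochondrial paralog Arg2 had the opposite order, with 283.7 ± 78.7 CPM in neutrophils, 40.5 CPM in monocytes and 13.3 CPM in macrophages. Nos2 was scarce in all 3, at 6.54 ± 7.31 CPM in macrophages, 3.16 ± 5.36 CPM in monocytes and 8.85 ± 12.6 CPM in neutrophils. These 3 levels did not differ beyond their spread, and endothelial cells had more, 20.8 ± 7.01 CPM.

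Chil3 averaged 606.8 ± 408 CPM in macrophages and 749 ± 732 CPM in monocytes, which overlapped, and 138.5 ± 174.6 CPM in neutrophils. Retnla was at 260.9 ± 342.9 CPM in macrophages, 20.9 CPM in monocytes and 3.76 CPM in neutrophils. Mrc1 stood at 476 ± 252 CPM in macrophages, 282 ± 190.8 CPM in monocytes and 9.64 ± 13.1 CPM in neutrophils. Cd163 and Folr2, the 2 resident-type genes, were both nearly limited to macrophages among the 3 cell types. Cd163 had 21.3 ± 11.8 CPM there and 2.32 CPM in monocytes. Folr2 had 87.3 ± 60.4 CPM there and 6.09 ± 4.67 CPM in monocytes.

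Mgl2 was highest outside the 3 cell types. Dendritic cells had 645.7 ± 371.8 CPM, macrophages 126.5 ± 138.7 CPM, monocytes 54.4 ± 48.8 CPM and neutrophils 4.92 ± 7.23 CPM. Its neighbour and paralog Clec10a was also highest in dendritic cells, at 213.6 CPM. Hcar2 was the only one of the 9 with its highest level in neutrophils: 544.7 ± 373.6 CPM, against 32.2 ± 13.6 CPM in macrophages, 25.8 ± 13.7 CPM in monocytes, 9.81 ± 6.33 CPM in dendritic cells and 1.24 ± 1.45 CPM in T and NK cells. The macrophage and monocyte levels of Hcar2 did not differ beyond their spread. Its neighbour Hcar1 averaged 0.0806 CPM in macrophages and 0.0662 CPM in neutrophils. Chil3 and its neighbour Chil4 share 77 of 451 windows of 50 bases near the 3′ end (17.1%), so some of their reads may not be told apart, and no such window was shared for the other pairs compared. These are per-molecule counts of 3′ tags, so levels are compared between cell types for 1 gene and not between genes.

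Among macrophages the 9 genes were high in different clusters. Cluster 22, led by the elastase gene Mmp12 and by Gpnmb, had 3379 CPM of Arg1, 1541 CPM of Chil3 and 19.4 CPM of Nos2. Cluster 17, led by Alox15, Prg4 and Fcna, had 3415 CPM of Arg1, 997.6 CPM of Retnla, 190 CPM of Folr2 and 45.0 CPM of Cd163. Cluster 2, led by Mucl1, Mgl2 and Nrg1, had 975 CPM of Arg1 with 693 CPM of Mrc1 and 335 CPM of Mgl2. Cluster 11, almost all from IPI-926 library 3, had 693.6 CPM of Mrc1 and 133 CPM of Folr2 but 14.1 CPM of Arg1, 0.42 CPM of Chil3 and no Retnla UMI. Nos2 had its highest macrophage level in cluster 22, where Arg1, which uses the same amino acid, was also high. In the 5 libraries with enough cells in that cluster there were 313 Nos2 UMIs and 54406 Arg1 UMIs. These cluster values pool libraries that differed: Nos2 in cluster 22 ran from 1.51 to 73.8 CPM between libraries, Chil3 there from 431.9 to 3297 CPM, and Retnla in cluster 17 from 46.6 to 3120 CPM. The 3120 CPM came from 20 cells of IPI-926 library 1.

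Among monocytes, cluster 6, led by Ccr2, had 766 CPM of Arg1, 958 CPM of Chil3 and 349 CPM of Mrc1, and cluster 4, led by Ly6c2, had 119 CPM of Arg1 and 178 CPM of Chil3, with all libraries pooled. Only 2 libraries had at least 20 cells in both clusters, and within them the order of Arg1 was the opposite. IPI-926 library 1 had 1648 CPM of Arg1 in cluster 4 and 767.6 CPM in cluster 6, and IPI-926 library 3 had 17.8 and 4.97 CPM. Chil3 was lower in cluster 4 within both, at 878.4 against 2289 CPM in library 1 and 136.4 against 335.1 CPM in library 3. Among neutrophils, cluster 23, led by Hcar2 and the itaconate-forming enzyme gene Acod1, had 2300 CPM of Hcar2 and 41.2 CPM of Nos2. Of its 847 cells, 676 came from IPI-926 library 1, as did 54 of the 56 Nos2 UMIs read by library there. Cluster 1, led by Retnlg and S100a8, had 652.8 CPM of Hcar2, and cluster 0, led by Mmp9 and Siglecf, had 400.9 CPM of Hcar2. Chil3 in cluster 1 came mostly from IPI-926 library 1: it stood at 852.6, 4.34 and 0 CPM in IPI-926 libraries 1 to 3, against 338.4, 25.9 and 58.9 CPM in vehicle libraries 1 to 3. Cluster differences are descriptions, since the cells that were clustered are the cells measured.

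**Figure D2:**
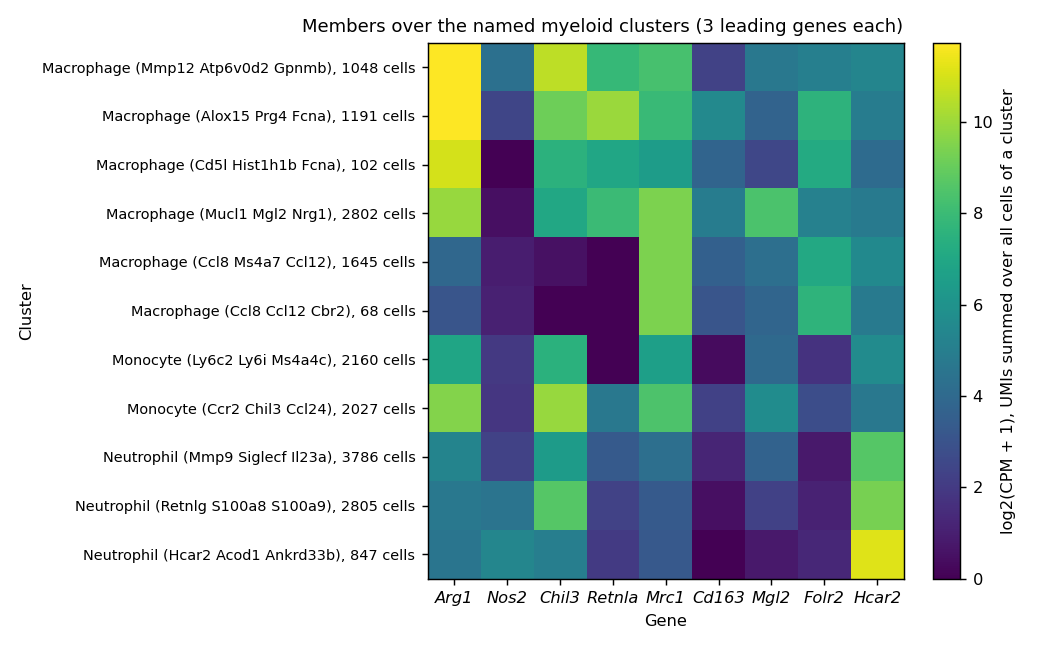
Level of each of the 9 genes (colour, log2 of CPM + 1, UMIs summed over all cells of a cluster) in each macrophage, monocyte and neutrophil cluster, named by its 3 leading genes. Among macrophages Arg1 is high in the Mmp12-led (3379 CPM) and Alox15-led (3415 CPM) clusters and low in the larger Ccl8-led one (14.1 CPM), Mgl2 peaks in the Mucl1-led cluster, and Hcar2 peaks in the neutrophil cluster it leads.

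Over 46 clusters of all cell types, the genes with the profile most like each of the 9 were found by Pearson's r of log2(CPM + 5), as a description among 11744 genes. Arg1 was most like Prtn3 (0.92), the coagulation factor gene F7 (0.909) and Retnla (0.894). Retnla was in turn most like F7 (0.902), Rnase2a (0.895) and Arg1. Chil3 was most like Abcd2 (0.908), the coagulation factor gene F10 (0.901) and Mcemp1 (0.862). Folr2 was most like Cbr2 (0.939), Kcnk13 (0.93) and Nxpe5 (0.881), and Cd163 was most like Folr2 (0.842), Kcnk13 (0.816) and Slc38a6 (0.804). Mgl2 was most like the chemokine gene Ccl17 (0.881), Htr7 (0.86) and Grk3 (0.859). Mrc1 was most like Ticam2 (0.948), the complement receptor gene C3ar1 (0.939) and Tbxas1 (0.937). Hcar2 was most like Tlr6 (0.964), the neutrophil marker Csf3r (0.956) and E230013L22Rik (0.936). Nos2 had the weakest matches, Dach1 (0.702), Rps6ka2 (0.68) and Rgcc (0.666). The clusters share libraries and depth, so these values carry no test.

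No gene was called as changed by IPI-926 in macrophages, monocytes or neutrophils by edgeR's quasi-likelihood test on counts summed per library, with Benjamini-Hochberg adjustment at 0.05 over all genes. In macrophages 0 of the 9 genes and 0 of 12252 tested genes (0%) passed, in monocytes 0 of 6 tested members and 0 of 9231 genes (0%), and in neutrophils 0 of 4 tested members and 0 of 8412 genes (0%). At an unadjusted p under 0.05 there were 172 genes (1.4%) in macrophages, 265 (2.87%) in monocytes and 396 (4.71%) in neutrophils. DESeq2 called 2 genes in macrophages, 2 in monocytes and 7 in neutrophils. The median log2 fold change of all genes tested was 0.02 in macrophages, 0.01 in monocytes and -0.02 in neutrophils. The log2 fold change was below 0 for 3 of the 9 members in macrophages, against 47.6% of all genes, for 2 of 6 in monocytes, against 49.2%, and for 1 of 4 in neutrophils, against 51.6%. It was at or below -1 for 1 member in macrophages (Mgl2), against 2.13% of all genes, and for none in monocytes (1.13% of all genes) or neutrophils (2.28%). Of the members not tested for low counts, Nos2, Retnla and Cd163 fell under the filter in monocytes, and Retnla, Mrc1, Cd163, Mgl2 and Folr2 in neutrophils.

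Hcar2 was the member whose libraries separated in all 3 cell types. In macrophages it stood at 44.1, 45.7 and 45.2 CPM in the 3 IPI-926 libraries, against 14.9, 21.8 and 22.9 CPM in the 3 vehicle libraries (45.0 ± 0.837 against 19.8 ± 4.33 CPM, SD, n = 3 each, scaled by TMM factors as are all levels by library here). All 3 IPI-926 libraries were above all vehicle libraries, and 4.91% of genes tested in macrophages had libraries that did not overlap in either direction. The log2 fold change was 1.18 (SE 0.217), with an unadjusted p of 0.001047 and an adjusted p of 0.9998 by edgeR over 12252 genes. DESeq2 gave an adjusted p of 0.05417.

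In monocytes Hcar2 stood at 27.8, 34.8 and 48.2 CPM in IPI-926 libraries, against 11.9, 23.6 and 10.8 CPM in vehicle libraries (36.9 ± 10.4 against 15.4 ± 7.10 CPM). The groups did not overlap, as for 7.4% of genes tested in monocytes. The log2 fold change was 1.15 (SE 0.345), with an unadjusted p of 0.007415 and an adjusted p of 1 by edgeR. The third IPI-926 library was highest, and without it the log2 fold change was 0.88. It was 0.65 where single cells were classed by their own UMIs of Csf1r, Adgre1, Csf3r and G0s2 in place of clusters.

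In neutrophils Hcar2 stood at 1400, 720.5 and 654.3 CPM in IPI-926 libraries, against 210.7, 347.4 and 162.8 CPM in vehicle libraries (924.9 ± 412.7 against 240.3 ± 95.8 CPM). Again no vehicle library reached an IPI-926 library, which held for 12.2% of genes tested in neutrophils. The log2 fold change was 1.95 (SE 0.428), with an unadjusted p of 8.787e-04 and an adjusted p of 0.8947 by edgeR. Fits of 2 other kinds put it past the threshold: the adjusted p was 0.01463 with DESeq2 and 0.001309 with edgeR when no filter on low counts was used. The first IPI-926 library, which gave most of Hcar2-led cluster 23, was highest. The log2 fold change was 1.52 without that library, 1.74 without cluster 23 and 2.14 without the third IPI-926 library.

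**Figure D3:**
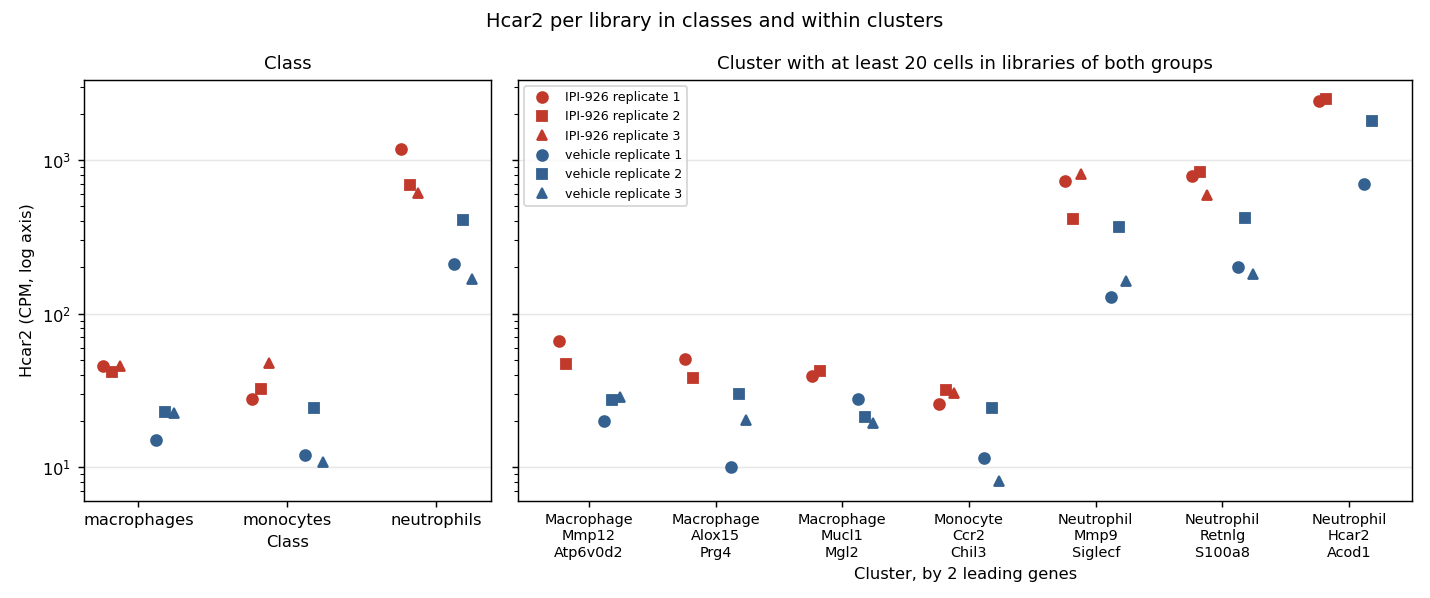
Hcar2 level (CPM before TMM scaling, log axis) in each library, 1 point per library, with IPI-926 left of vehicle, in the 3 cell types (left) and within the 7 clusters with at least 20 cells in libraries of both groups, named by 2 leading genes (right). In each cell type and each cluster every IPI-926 point lies above every vehicle point.

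The response of Hcar2 was not shown to differ between cell types. The log2 fold change in macrophages minus that in neutrophils was -0.73 (SE 0.574, adjusted p 0.8052), and minus that in monocytes -0.09 (SE 0.359, adjusted p 0.9948), by limma on the difference within a library. Over all genes, 0 of 8295 (0%) and 0 of 9228 (0%) passed in these 2 comparisons, with 274 (3.3%) and 217 (2.35%) at an unadjusted p under 0.05. Higher Hcar2 in IPI-926 was not limited to myeloid cells. Ductal cells had 6.22 ± 1.60 CPM in IPI-926 and 2.02 ± 0.137 CPM in vehicle (unscaled, SD, n = 3 each). Dendritic cells had 13.5 ± 7.63 and 6.13 ± 1.15 CPM, and T and NK cells 1.57 ± 1.56 and 0.910 ± 1.58 CPM. The part of free RNA in these levels was not tested.

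The order of the libraries was next read within clusters, as a count added after the values were seen. Clusters of the 3 cell types with at least 20 cells in 2 or more libraries of each group numbered 7, and the clustering had left Hcar2 out. In macrophage cluster 22 Hcar2 stood at 65.9 and 47.1 CPM in IPI-926, against 20.1, 27.4 and 28.7 CPM in vehicle. In cluster 17 it stood at 50.5 and 38.1 CPM in IPI-926, the first from 12 UMIs in 20 cells, against 9.98, 29.9 and 20.2 CPM in vehicle. In cluster 2 it stood at 39.1 and 42.2 CPM in IPI-926, against 27.6, 21.3 and 19.2 CPM in vehicle. Libraries that did not overlap in either direction were found for 14.9% of genes with at least 20 UMIs in cluster 22, 14.4% in cluster 17 and 14.4% in cluster 2. The third IPI-926 library had too few cells in these 3 clusters, so they show the order without it.

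Monocyte cluster 6 had 25.8, 31.8 and 30.3 CPM of Hcar2 in IPI-926, against 11.4, 24.4 and 8.06 CPM in vehicle, the last from 4 UMIs. Neutrophil cluster 0 had 735.9, 412.6 and 812.1 CPM in IPI-926, the last from 15 UMIs in 21 cells, against 127.8, 365.3 and 163 CPM in vehicle. Cluster 1 had 787.9, 836.2 and 592.4 CPM in IPI-926, against 200.5, 417.3 and 181.5 CPM in vehicle, and cluster 23 had 2424 and 2509 CPM in IPI-926, against 696.7 and 1793 CPM in vehicle. Libraries did not overlap for 7.31% of genes in cluster 6, 8.45% in cluster 0, 6.47% in cluster 1 and 31.9% in cluster 23. Cluster 23 was read in 2 libraries of each group. In each of the 7 clusters, every IPI-926 library that was read had more Hcar2 than every vehicle library that was read; IPI-926 library 3 was read in clusters 6, 0 and 1 only. Of 4476 genes with at least 20 UMIs in each of the 7 clusters, Hcar2 was the 1 gene (0.0223%) that was above in all 7. The 4 genes (0.0894%) below in all 7 were Gkn1, Gkn2, Tff1 and Mgp, of which the first 3 are secreted by gastric-type epithelium. The 7 clusters share the same mice and each library's free RNA, so they are not independent readings. Because the count was added after the Hcar2 values were seen, it is a description and no test.

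Markers of other cell types were read beside these levels. The 12 neutrophil markers summed to 85.0 to 515 CPM in macrophages of IPI-926 and to 201 to 412 CPM in vehicle, and 11 or 12 of the 12 had a UMI in each library. In monocytes they summed to 224 to 1660 CPM in IPI-926 and 430.5 to 521.5 CPM in vehicle. The 8 ductal markers summed to 54.2 to 153 CPM in macrophages of IPI-926, all below the 189.5 to 455 CPM in vehicle. They overlapped in neutrophils, at 289 to 1203 CPM in IPI-926 and 886.5 to 2875 CPM in vehicle. The 12 macrophage markers were higher in macrophages of IPI-926, at 21670 to 45740 CPM, than in those of vehicle, at 14830 to 17310 CPM, and so they were in monocytes, at 10760 to 13480 CPM in IPI-926 and 6551 to 8397 CPM in vehicle. The ductal markers also overlapped in monocytes, at 75.4 to 289 CPM in IPI-926 and 228 to 951 CPM in vehicle. The part of these in the Hcar2 difference was not tested.

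Hcar2 UMIs were also set against those of 3 neutrophil genes in the same cells. For each Csf3r UMI there were 1.57, 1.63 and 0.791 Hcar2 UMIs in macrophages of IPI-926 libraries 1 to 3, and 1.24, 0.774 and 0.351 in their neutrophils. In vehicle libraries the Csf3r ratio was 0.985, 0.555 and 0.934 in macrophages and 0.349, 0.346 and 0.183 in neutrophils.

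For each S100a8 UMI there were 0.574, 0.741 and 8.83 Hcar2 UMIs in macrophages of IPI-926, and 0.0349, 0.0550 and 0.0156 in their neutrophils. In vehicle the S100a8 ratio was 0.275, 0.540 and 0.241 in macrophages and 0.00693, 0.0411 and 0.00477 in neutrophils. For each G0s2 UMI there were 3.04, 5.17 and 116.6 Hcar2 UMIs in macrophages of IPI-926, the last on 5 G0s2 UMIs, and 0.499, 0.175 and 0.482 in their neutrophils. In vehicle the G0s2 ratio was 1.88, 2.69 and 1.71 in macrophages and 0.0878, 0.213 and 0.0386 in neutrophils. The part of free neutrophil RNA in the macrophage level was not tested.

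The share of cells with a Hcar2 UMI gave the same order once every cell was thinned to 1000 UMIs. Of the 9 genes, Hcar2 alone did not overlap between the groups in each cell type, as for 6.69% of genes tested in macrophages, 8.85% in monocytes and 15.8% in neutrophils. In neutrophils 56.0%, 37.3% and 38.1% of cells had one in IPI-926, against 17.8%, 27.2% and 14.2% in vehicle (43.8 ± 10.5% against 19.7 ± 6.71%). The third IPI-926 library had 97 neutrophils left, and the exact 95% interval of its share was 28.5% to 48.6%. In macrophages the shares were 3.10%, 3.44% and 4.0% in IPI-926, against 1.69%, 2.01% and 3.0% in vehicle. In monocytes they were 3.0%, 2.33% and 4.72% in IPI-926, against 1.52%, 2.03% and 0% in vehicle, the last from 0 of 83 cells with an upper bound of 4.35%. In T and NK cells, which should lack the gene, they were 0.684%, 0% and 0.192% in IPI-926, against 0%, 0.340% and 0% in vehicle.

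The differences in these shares were 24.1 percentage points in neutrophils, 1.28 in macrophages and 2.16 in monocytes. The two-sided exact permutation p was 0.1 in each, the smallest that 20 assignments of the libraries allow, and 0.9 after adjustment over the 9 members of a cell type. Without thinning, at median depths of 995.5 to 1800 UMIs in IPI-926 and 1258 to 1595 UMIs in vehicle, 65.1%, 48.9% and 33.0% of neutrophils had a Hcar2 UMI in IPI-926, against 23.9%, 37.0% and 19.4% in vehicle, and the groups overlapped. Unthinned shares of macrophages were 29.7%, 36.5% and 23.2% in IPI-926, against 13.4%, 16.1% and 21.5% in vehicle, with no overlap. In monocytes the unthinned shares overlapped, at 13%, 16.7% and 17.3% in IPI-926 against 6.08%, 13.9% and 6.02% in vehicle. PCR copies are collapsed by the UMIs, and the intervals cover counting error only.

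The other 8 genes varied widely between mice in macrophages, and all 8 overlapped between the groups. Arg1 stood at 1753, 3617 and 30.2 CPM in IPI-926, against 2714, 1654 and 791.8 CPM in vehicle, a log2 fold change of 0.07 (SE 1.28) that was 0.64 without the third IPI-926 library. Nos2, its counterpart in arginine use, stood at 17.3, 6.08 and 0.930 CPM in IPI-926, against 13.1, 1.05 and 0.669 CPM in vehicle, with a log2 fold change of 0.70, and 1.24 without that library. In both groups the first library had the most Nos2. The libraries of the groups overlapped for both genes.

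Chil3 stood at 948.2, 330.7 and 4.73 CPM in IPI-926, against 683.6, 553 and 1105 CPM in vehicle (log2 fold change -0.87, and -0.29 without the third IPI-926 library). Retnla ranged most widely, with 135.4, 964.6 and 0 CPM in IPI-926, against 24.2, 415.4 and 84.9 CPM in vehicle. Its log2 fold change was 1.07, and 1.65 without the third IPI-926 library. Its 0 in the third IPI-926 library came from 0 of 12798259 UMIs, which allows up to 0.234 CPM. Arg1, Chil3 and Retnla thus had their lowest value in the same library, the one whose macrophages were in cluster 11. The libraries of the groups overlapped for all 3 genes.

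Mrc1, Folr2 and Cd163 did not have their lowest value in that library. Mrc1 stood at 494.4, 281.9 and 681.3 CPM in IPI-926, against 277, 816.7 and 274.8 CPM in vehicle, and was highest among IPI-926 libraries in the third. Folr2 stood at 33.5, 109.7 and 133.8 CPM in IPI-926, against 176.4, 40.8 and 34.0 CPM in vehicle. Cd163 stood at 7.97, 28.4 and 10.9 CPM in IPI-926, against 28.2, 37.1 and 15.4 CPM in vehicle. The groups overlapped for all 3 genes, with log2 fold changes of 0.09, 0.14 and -0.77. Without the third IPI-926 library they were -0.23, -0.22 and -0.55, so the direction of Mrc1 and Folr2 turned.

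Mgl2 stood at 107.5, 42.1 and 17.5 CPM in IPI-926 macrophages, against 37.7, 367.9 and 171.5 CPM in vehicle (log2 fold change -1.79, SE 0.931, unadjusted p 0.0985, adjusted p 0.9998 by edgeR; -1.37 without the third IPI-926 library). The third IPI-926 library was lowest, and the groups overlapped through vehicle library 1. Within Mgl2-rich cluster 2 it stood at 141.4 and 192.8 CPM in IPI-926, against 212.2, 480.6 and 292.2 CPM in vehicle, with no overlap, as for 14.4% of genes with at least 20 UMIs there. Of the other members within clusters, Arg1 separated the groups in cluster 22, where it stood at 4442 and 3765 CPM in IPI-926, against 3386, 3673 and 1329 CPM in vehicle. Such separation held for 14.9% of genes there. Folr2 separated them in cluster 17, with 121.9 and 155.3 CPM in IPI-926, against 277.2, 164.5 and 204.8 CPM in vehicle, where 14.4% of genes separated. The 121.9 CPM came from 29 UMIs in 20 cells. Nos2 also separated the groups in cluster 17, on 5 UMIs in IPI-926. Chil3, Retnla, Mrc1 and Cd163 overlapped between the groups in every one of the 7 clusters where the gene had at least 20 UMIs; Mrc1 did not overlap in cluster 23, on 12 UMIs.

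**Figure D4:**
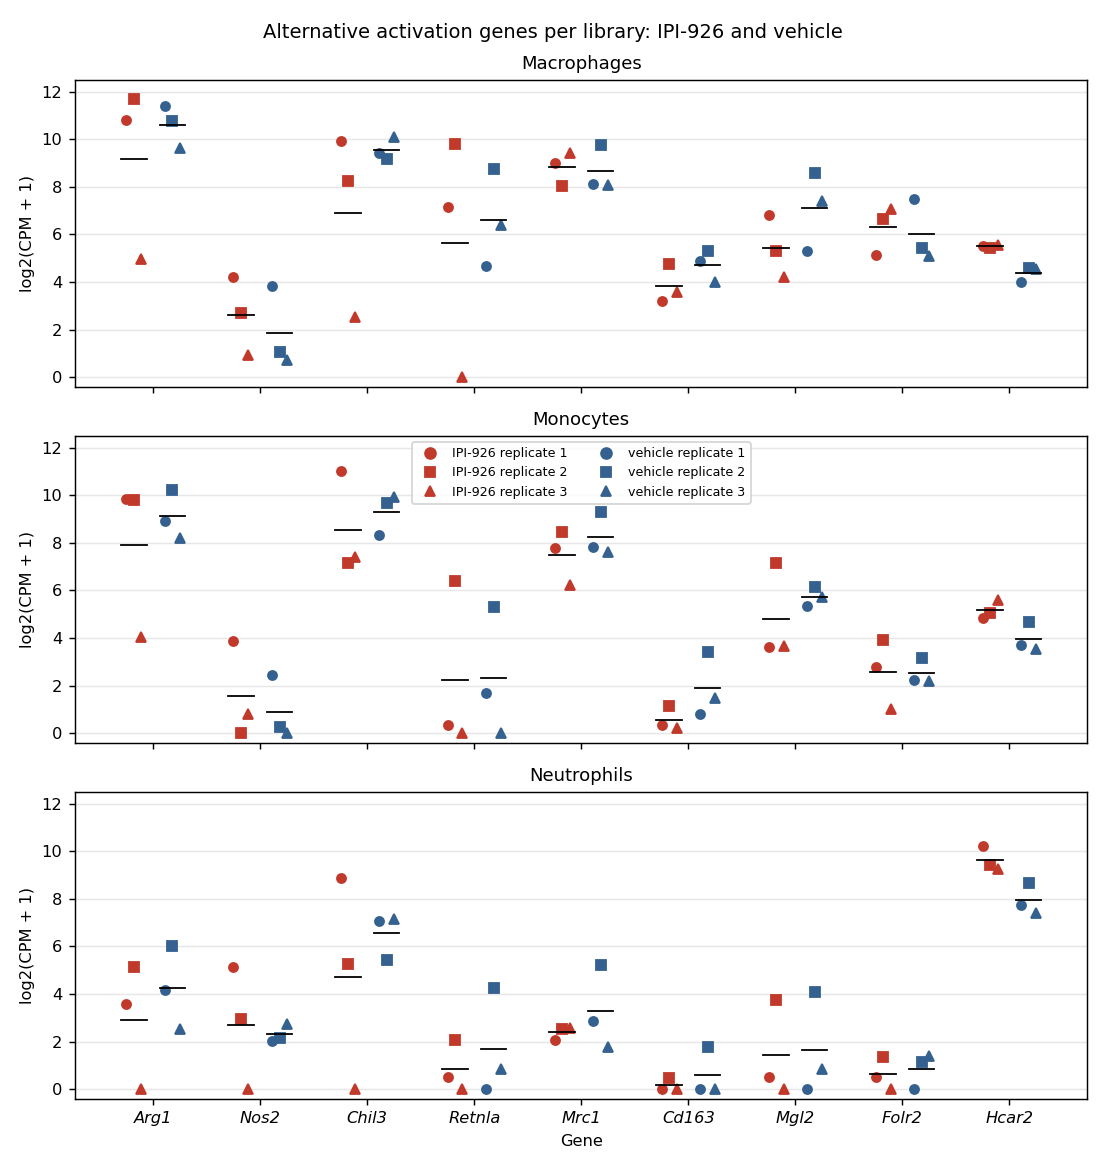
Level of the 9 genes (log2 of CPM + 1, before TMM scaling) in macrophages, monocytes and neutrophils, 1 point per library and a line at the mean of these log values, with IPI-926 left of vehicle. Hcar2 alone separates the groups in all 3 cell types, and in macrophages IPI-926 library 3 is lowest for Arg1 and Chil3 and has no Retnla UMI.

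In monocytes Arg1 stood at 902.9, 950.5 and 15.9 CPM in IPI-926, against 486.8, 1151 and 297.5 CPM in vehicle, with a log2 fold change of -0.06, and 0.52 without the third IPI-926 library. Chil3 stood at 2058, 152.1 and 172.5 CPM in IPI-926, against 320.8, 784.9 and 982 CPM in vehicle (log2 fold change 0.19, and 0.69 without the third IPI-926 library). Mrc1 stood at 219.2, 380.2 and 75.5 CPM in IPI-926, against 223.8, 605.1 and 193.5 CPM in vehicle (log2 fold change -0.62, and -0.20 without that library). Mgl2 and Folr2 stood at no more than 154 and 15.5 CPM in any library, with log2 fold changes of 0.08 and 0.16, and 0.58 and 0.80 without the third IPI-926 library. All 5 genes overlapped between the groups, and their adjusted p was 1 by edgeR.

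In neutrophils Chil3 stood at 565.1, 39.5 and 0 CPM in IPI-926, against 135.2, 35.4 and 135.7 CPM in vehicle, so that 1 library held most of it. Arg1 stood at 13.1, 35.7 and 0 CPM in IPI-926, against 17.3, 54.5 and 4.65 CPM in vehicle. Nos2 stood at 40.6, 7.06 and 0 CPM in IPI-926, against 3.14, 2.91 and 5.43 CPM in vehicle. The zeros of the third IPI-926 library, from 200772 UMIs, allow up to 14.9 CPM each. Nos2 had a log2 fold change of 2.45 (SE 0.847, unadjusted p 0.01748, adjusted p 0.8947 by edgeR) with overlapping groups, and passed in 1 alternative, with no filter on low counts (adjusted p 0.007377). Without the third IPI-926 library the log2 fold changes were 2.71 for Nos2, 1.62 for Chil3 (1.07 with it) and -0.23 for Arg1 (-0.43 with it).

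The 9 genes were also read as pairs within single macrophages, thinned to 1000 UMIs, as cells with both genes over the number expected from the 2 shares. All 36 pairs were examined, and a ratio was given for a library with at least 5 cells expected. Arg1 and Chil3 were found together more often than expected in each of 5 libraries, at 1.45 and 1.09 times in IPI-926 libraries 1 and 2 and at 1.23, 1.41 and 1.62 times in vehicle libraries 1 to 3 (554 cells seen, 411.4 expected). Arg1 and Mgl2 were found together less often than expected in all 5, at 0.766 and 0.154 times in IPI-926 and at 0.435, 0.659 and 0.403 times in vehicle (185 seen, 313.7 expected). Chil3 and Mgl2 were at 0.322 times in IPI-926 library 1 and at 0.426 and 0.165 times in vehicle libraries 2 and 3. In the libraries that gave a ratio, cells with Mgl2 and either of these genes were thus fewer than expected.

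Mrc1 was found more often than expected with Folr2 and, by little in most libraries, with Mgl2, but not with Hcar2. Mrc1 and Folr2 were together at 2.28, 1.56 and 1.35 times the expected number in IPI-926 and at 1.77 and 1.31 times in vehicle libraries 1 and 2. Mrc1 and Mgl2 were together at 1.09, 2.31 and 1.09 times in IPI-926 and at 1.39, 1.08 and 1.009 times in vehicle (two-sided exact permutation p = 0.5, n = 3 each). Mrc1 and Hcar2 were at 0.633, 0.750 and 0.976 times in IPI-926 and at 0.860 times in vehicle library 2. Arg1 and Mrc1 had no common direction, with 2 libraries above 1 and 4 below.

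Within clusters the pairs varied. Arg1 and Chil3 were together at 0.978 to 1.10 times the expected number in cluster 22 and at 1.05 to 1.20 times in cluster 17. In cluster 2 they were at 1.07 times in IPI-926 library 1 and at 1.41 and 2.37 times in vehicle libraries 2 and 3, the last from 12 cells seen. Arg1 and Mgl2 in cluster 2 were at 0.989 and 0.228 times in IPI-926 libraries 1 and 2 and at 0.645, 0.726 and 0.295 times in vehicle libraries 1 to 3, so that IPI-926 library 1 showed no shortfall there. In cluster 22 they were at 0.95 and 1.06 times in vehicle libraries 2 and 3. Mrc1 and Mgl2 in cluster 2 were near the expected number, at 1.002 and 1.14 times in IPI-926 libraries 1 and 2. In vehicle libraries 1 to 3 they were at 0.824, 1.008 and 1.11 times there. In monocytes Chil3 and Mrc1 were found together less often than expected in all 6 libraries, at 0.736, 0.461 and 0.386 times in IPI-926 and at 0.717, 0.931 and 0.801 times in vehicle (two-sided exact permutation p = 0.2, n = 3 each). Cells of 1 library share its depth and free RNA, so these ratios are descriptions of each library.

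**Figure D5:**
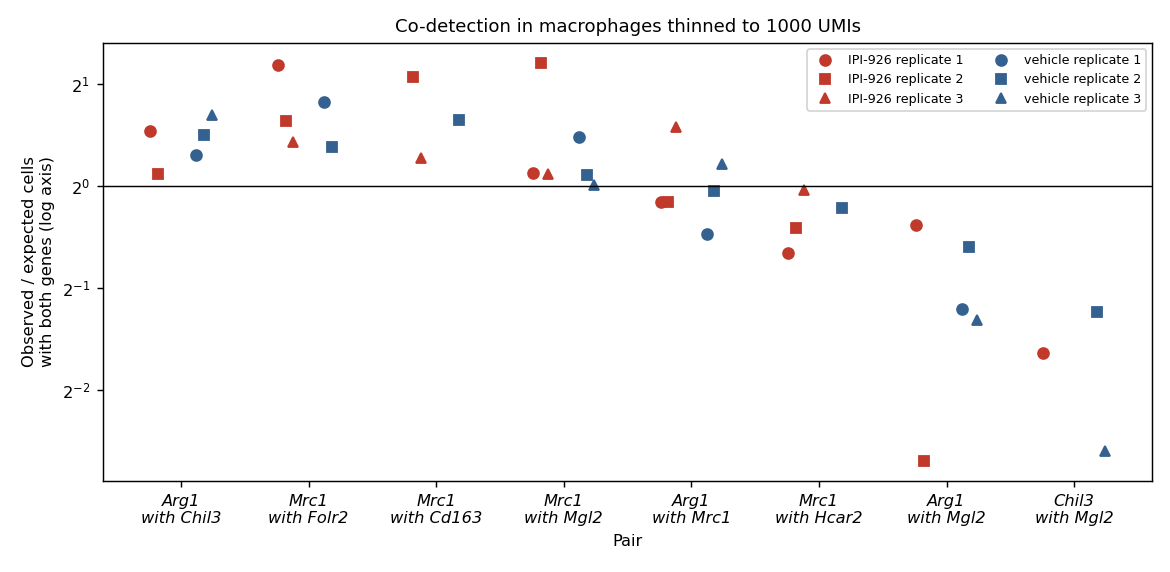
Observed over expected number of macrophages with both genes of a pair (log axis), for 8 pairs, 1 point per library with at least 5 cells expected, with IPI-926 left of vehicle. Arg1 with Chil3 lies above 1 and Arg1 with Mgl2 below 1 in all 5 libraries that give a ratio.

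Genes of the same pathways were counted from fixed lists, and 0 genes of any list passed edgeR's test in any of the 3 cell types. Of 18 arginine and polyamine genes, 16 were tested in macrophages, with 9 above and 7 below 0 and a median log2 fold change of 0.10, against 0.02 for all genes, and 0.17 without the third IPI-926 library (11 of 16 above). In neutrophils 10 of 13 were above 0 and 3 below, with a median of 0.41, against -0.02 for all genes. Arg2 had 449.3, 362.5 and 340.4 CPM in IPI-926 neutrophils, against 176.1, 180.7 and 259.8 CPM in vehicle (log2 fold change 0.91, SE 0.309, unadjusted p 0.01403, adjusted p 0.8947 by edgeR). Sat1, which acetylates spermidine, had 538.7, 499.1 and 1016 CPM in IPI-926, against 432.4, 220.3 and 374.5 CPM in vehicle. Azin1, the antizyme inhibitor, had 163.9, 93.4 and 175.5 CPM in IPI-926, against 77.0, 87.6 and 82.2 CPM in vehicle. None of these 3 overlapped between the groups, as for 12.2% of genes tested there, and none passed after adjustment.

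In macrophages Slc3a2, the heavy chain of amino acid transporters, had 214.8, 192.2 and 274.7 CPM in IPI-926, against 142.5, 142.9 and 160.1 CPM in vehicle (log2 fold change 0.61, unadjusted p 0.02765, adjusted p 0.9998 by edgeR). In monocytes 7 of 15 genes of this list were above 0 and 8 below, with a median of -0.07, and 0.08 without the third IPI-926 library (8 of 14 above). Spermidine synthase, Srm, had 22.2, 29.0 and 19.1 CPM in IPI-926 monocytes, against 34.1, 38.2 and 39.4 CPM in vehicle (unadjusted p 0.01871, adjusted p 1 by edgeR). Srm did not overlap between the groups, as for 7.4% of genes tested in monocytes.

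Of 25 genes of the interleukin 4 and 13 response, 22 were tested in macrophages, with 13 above and 9 below 0 and a median log2 fold change of 0.10. In monocytes 7 of 20 were above 0 and 13 below (median -0.15, and 0.12 without the third IPI-926 library, with 11 of 19 above), and in neutrophils 10 of 14 were above 0 (median 0.24, and 0.41 without that library, with 12 of 15 above). Il2rg, the shared cytokine receptor chain, had 81.7, 80.6 and 135.5 CPM in IPI-926 monocytes, against 58.5, 53.4 and 55.6 CPM in vehicle (log2 fold change 0.84, unadjusted p 0.008916, adjusted p 1 by edgeR). Pdcd1lg2, which encodes the checkpoint ligand PD-L2, had 2.42, 5.47 and 4.11 CPM in IPI-926 macrophages, against 1.54, 29.96 and 11.8 CPM in vehicle, and the groups overlapped. Irf4, a transcription factor of alternatively activated macrophages, had 12.7, 8.40 and 3.33 CPM in IPI-926, against 6.51, 24.7 and 26.8 CPM in vehicle. Stat6 itself had 119.6, 95.1 and 79.8 CPM in IPI-926 neutrophils, against 69.2, 70.7 and 67.5 CPM in vehicle (unadjusted p 0.0908).

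Of 20 inflammatory activation genes, 19 were tested in macrophages, with 11 above and 8 below 0 and a median log2 fold change of 0.50. The third IPI-926 library set the largest of these values, and without it 13 of 20 were above 0 with a median of 0.08. The interferon-induced gene Gbp2 had 14.6, 8.90 and 271.3 CPM in IPI-926, against 7.83, 11.4 and 7.36 CPM in vehicle. The chemokine gene Ccl5 had 5.56, 1.33 and 367.8 CPM in IPI-926, against 0.551, 5.99 and 0.535 CPM in vehicle. The costimulatory gene Cd86 had 118.8, 86.5 and 191.6 CPM in IPI-926, against 59.8, 83.2 and 85.8 CPM in vehicle (unadjusted p 0.04935, adjusted p 0.9998 by edgeR). Cd86 alone of these 3 did not overlap, as for 4.91% of genes tested in macrophages. In monocytes 14 of 19 genes of the list were above 0 (median 0.30), and in neutrophils 11 of 15 (median 0.19, and 0.32 without the third IPI-926 library, with 12 of 16 above).

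Of 15 tissue-resident type macrophage genes, all were tested in macrophages, with 7 above and 8 below 0 and a median of -0.11. Without the third IPI-926 library 2 were above and 13 below 0, with a median of -0.52. Ccl8 had 34.5, 16.3 and 15000 CPM in IPI-926, against 277.1, 184.6 and 15.9 CPM in vehicle, so 1 library held nearly all of it. Lyve1, the hyaluronan receptor, had 7.61, 21.01 and 44.8 CPM in IPI-926, against 166.5, 17.04 and 16.7 CPM in vehicle. Of 17 low oxygen and glycolysis genes, 12 of 15 tested were above 0 in macrophages (median 0.17), 8 of 14 in monocytes (median 0.10) and 13 of 14 in neutrophils (median 0.51). Without the third IPI-926 library all 15 were above 0 in macrophages (median 0.54), 12 of 14 in monocytes (median 0.26) and 14 of 15 in neutrophils (median 0.72). The medians of all genes were then -0.002, 0.002 and -0.04. By edgeR 0 genes of the list were past the threshold in each, and 1, 2 and 4 had an unadjusted p under 0.05. Among all genes tested in these fits, 190 of 12265, 176 of 8609 and 546 of 9735 had an unadjusted p under 0.05. The counts of signs carry no test, and those without each of the other libraries are not given. Bnip3, a mitophagy receptor, had 269.9, 150.3 and 101.1 CPM in IPI-926 neutrophils, against 125.8, 89.4 and 54.3 CPM in vehicle (unadjusted p 0.03717, adjusted p 0.8947 by edgeR), and the groups overlapped. Ndrg1 had 71.6, 41.2 and 46.9 CPM in IPI-926 monocytes, against 28.2, 38.6 and 28.7 CPM in vehicle (unadjusted p 0.02828, adjusted p 1 by edgeR). Ndrg1 did not overlap, as for 7.4% of genes tested in monocytes.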

How the data were processed

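The authors deposited 1 matrix of raw UMI counts per library; Cell Ranger 2.1.1 and mm10 are named in the submitters' processing notes, and cellranger 6.1.2 in the file header. Each library is taken as 1 mouse, and p-values measure the spread between these 6 samples.

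Barcodes needed 500 UMIs and 300 genes, with no more than 20% of UMIs mitochondrial (54911 passed), and simulated-doublet scoring removed 5114. Leiden clustering (leidenalg 0.10.2, 30 principal components, 15 neighbours, resolution 1) left out the 9 genes, their paralogs, the gene lists and sex genes. A cluster was named from at least 3 detected markers. Raw counts were summed per library and cell type and tested with edgeR 4.0.16 (TMM, filterByExpr, robust quasi-likelihood) in R 4.3.3, with DESeq2 1.42.0 and limma 3.58.1 as alternatives; limma also tested differences between cell types. The exact permutation test used 20 assignments of the libraries (smallest p 0.1). Shares and pairs used cells thinned to 1000 UMIs. The scripts were tested on simulated data with known changes.

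The members and lists were chosen with earlier results of these data known. Named beyond the members are up to 4 genes of smallest p per list and cell type, the 3 most alike genes, the markers and the paralogs. Gkn1, Gkn2, Tff1, Mgp and the leading genes of clusters were named after their values were seen.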

Additional observations from a re-analysis of the deposited data

How the results depend on the processing

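Without 1 library at a time, the genes called numbered 0 to 1 in monocytes and 0 to 2 in neutrophils, and the member and cell type pairs whose shares did not overlap numbered 3 to 7 (3 with all libraries, of 27, beside 6.69% of genes in macrophages, 8.85% in monocytes and 15.8% in neutrophils; 1 without thinning). The share over all genes was not computed with a library left out, where fewer libraries make separation easier. Genes called, 0 in the main fits, were 2 in macrophages, 2 in monocytes and 7 in neutrophils with DESeq2. With cells thinned to 1000 UMIs they were 1 in macrophages and 1 in neutrophils. They were 1 in monocytes with equal cells per library, 47 in neutrophils with no filter on low counts, 1 there with the stricter cell filter and 1 there without the Hcar2-led cluster. Members called in neutrophils were 1 with DESeq2 (Hcar2) and 2 with no filter (Hcar2 and Nos2). Pairs were also counted over the 3 cell types where at least 5 libraries gave a ratio. Thinning to 2000 UMIs gave 10 such pairs with the same direction in each library with a ratio, against 5 at 1000 UMIs. The Hcar2 log2 fold change kept its sign, at 0.85 to 1.29 over 18 settings in macrophages, 0.65 to 1.69 over 16 in monocytes and 1.52 to 2.31 over 17 in neutrophils, with adjusted p of 0.05417 to 1, 0.4688 to 1 and 0.001309 to 1.

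Other members changed sign in some settings, where the cause was not tested. In macrophages, Arg1 was -0.059 with thinned cells and -1.40 with limma-voom, and Retnla was -2.42 with limma-voom. There Mrc1 was -0.071 with thinned cells, -0.19 with the per-cell UMI gate, -0.018 with unnamed macrophage-marked clusters and -0.32 without clusters of 1 library, and Folr2 was -0.40 with the gate and -0.30 without clusters of 1 library. In monocytes, Arg1 was 0.061 with equal cells, Chil3 was -0.73 with limma-voom, Mgl2 was -0.70 with thinned cells, -0.40 with equal cells, -1.28 with limma-voom and -1.74 with the gate, and Folr2 was -1.55 with limma-voom and -1.01 with the gate. In neutrophils the gate gave 0.051 for Arg1 and -0.17 for Chil3. The macrophage minus monocyte difference of Hcar2 was 0.054 with the library as replicate block and 0.46 with the gate.

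Without 1 library at a time, log2 fold changes in macrophages ran from -0.93 to 0.64 for Arg1, -0.47 to 3.17 for Nos2, -1.38 to 2.75 for Retnla, -0.23 to 0.81 for Mrc1 and -0.23 to 1.29 for Folr2. In monocytes they ran from -0.49 to 0.65 for Arg1, -2.09 to 0.70 for Chil3, -1.22 to 0.090 for Mrc1, -2.22 to 0.58 for Mgl2 and -0.81 to 0.80 for Folr2, and in neutrophils from -1.37 to 1.03 for Arg1 and -1.84 to 1.62 for Chil3. The Hcar2 difference between macrophages and monocytes ran from -0.35 to 0.23. The settings with unnamed clusters, without clusters of 1 library and without the Hcar2-led cluster were chosen after seeing the data. No paired analysis was possible because the labels give no replicate number that pairs the groups. Depth limited neutrophils most: 97 of 194 cells of IPI-926 library 3 had 1000 UMIs.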

Other observations

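Chil4, the neighbour and paralog of Chil3, was found mainly in ductal cells and mainly in 1 library. Ductal cells had 0, 0.0221 and 0.112 CPM of Chil4 in IPI-926 libraries 1 to 3, against 1.05, 911.8 and 35.7 CPM in vehicle libraries 1 to 3. Vehicle library 2 alone held most of it, and no test was made. In neutrophils Chil4 averaged 15.5 ± 38.0 CPM over 6 libraries, and in T and NK cells 8.80 ± 21.5 CPM.

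Nos2 had its highest level in endothelial cells, which had 15.7, 19.8 and 28.5 CPM in IPI-926, against 17.1, 30.2 and 13.3 CPM in vehicle, with overlapping groups. Dendritic cells had 557, 1128 and 232.5 CPM of Mgl2 in IPI-926, against 317.6, 1056 and 583 CPM in vehicle, also overlapping. Fibroblasts had 73.0, 177 and 2.98 CPM of Arg1 in IPI-926, against 40.3, 110.2 and 32.4 CPM in vehicle, and the third IPI-926 library, lowest for Arg1 in macrophages and monocytes, was lowest here too. The Arg1 level of T and NK cells, 27.1 ± 34.1 CPM, is the one to read it against. Retnlg, a paralog of Retnla, averaged 3224 ± 2513 CPM in neutrophils, against 1.77 CPM in macrophages, so the 2 paralogs were found in different cell types.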
